A study of Mus musculus with 76 samples.

Results

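Reabsorption of sodium and secretion of potassium in the last parts of the nephron were read from 10 of the 54232 genes in the deposited tables. The genes were taken from a list by symbol, with no threshold on a measured value, and all 10 passed the filter on low counts. They are Umod, Slc12a1 and Kcnj1 of the thick ascending limb, Slc12a3 of the distal convoluted tubule, Scnn1a, Scnn1b and Scnn1g, the 3 subunits of the epithelial sodium channel (ENaC), and the regulators Nedd4l, Wnk1 and Wnk4. Kidney RNA came from male SCID mice of the Fox Chase line (CB17/Icr-Prkdcscid/IcrlcoCrl) at 12 weeks of age. All arms carry the Prkdc scid allele, which removes working T and B lymphocytes and leaves neutrophils and macrophages in place. The 5 arms were partial nephrectomy (PNx) with transplanted Lenti-adipo-NaKtide cells (called NaKtide cells here), PNx with Lenti-adipo-scrambled cells (scrambled cells), PNx with control cells, PNx without cells, and sham surgery without cells (Sham). A sample named NaKtide cells 1 is thus the kidney RNA of a mouse given those cells, not the cells. NaKtide is a peptide that keeps the sodium pump from signalling through the kinase Src. The labels give no cell type, number or day for the transplanted cells and do not say which part of the kidney was taken or how long after surgery. Nothing in them states that each of the 5 samples of an arm is another animal, so the p-values rest on sample-to-sample spread, which may be technical.

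As background, the thick ascending limb takes up salt through the cotransporter NKCC2 (Slc12a1), and the potassium channel ROMK (Kcnj1) returns potassium to the lumen so that the cotransporter can go on working. Uromodulin (Umod), the most abundant urinary protein, is made in the same cells. The distal convoluted tubule takes up salt through the thiazide-sensitive cotransporter NCC (Slc12a3), and the connecting tubule and collecting duct take up sodium through ENaC under aldosterone, where ROMK also secretes potassium. WNK1 and WNK4 are kinases that act on NCC and NKCC2 through the kinase SPAK, and NEDD4-2 (Nedd4l) is a ubiquitin ligase that removes ENaC from the cell surface.

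Scnn1g and Scnn1b are neighbours on mouse chromosome 7 (GRCm38, GENCODE M21), on the same strand and 96562 bases apart. Scnn1g (ENSMUSG00000000216) spans 121734479 to 121768475 and Scnn1b (ENSMUSG00000030873) spans 121865038 to 121918514. Umod (ENSMUSG00000030963) lies on the same chromosome at 119462711 to 119479282, and Kcnj1 (ENSMUSG00000041248) on chromosome 9 at 32372493 to 32399197. Slc12a1 (ENSMUSG00000027202) lies on chromosome 2, Scnn1a (ENSMUSG00000030340) and Wnk1 (ENSMUSG00000045962) on chromosome 6, Slc12a3 (ENSMUSG00000031766) on chromosome 8 and Wnk4 (ENSMUSG00000035112) on chromosome 11. RefSeq promoters of 250 bases before to 50 after the annotated start were found for 8 members, all on GRCm38.p6. Those shown are of the neighbouring pair whose patterns across samples differed, of Umod, the member with the highest level, and of Kcnj1, the member with the largest difference from Sham in kidneys given scrambled cells. Capitals mark 2 motifs searched on both strands, AGAACA, a half-site of steroid receptors, and GTTAAT, a half-site of HNF1 factors. Each line runs 5′ to 3′ on the gene's strand.
Scnn1b, chr7:121864788-121865087, plus strand: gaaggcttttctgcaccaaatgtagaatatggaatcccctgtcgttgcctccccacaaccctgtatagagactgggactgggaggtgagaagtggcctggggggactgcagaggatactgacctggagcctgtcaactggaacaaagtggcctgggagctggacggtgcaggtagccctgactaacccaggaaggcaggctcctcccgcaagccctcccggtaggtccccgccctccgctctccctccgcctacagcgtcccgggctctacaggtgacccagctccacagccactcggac
Scnn1g, chr7:121734229-121734528, plus strand: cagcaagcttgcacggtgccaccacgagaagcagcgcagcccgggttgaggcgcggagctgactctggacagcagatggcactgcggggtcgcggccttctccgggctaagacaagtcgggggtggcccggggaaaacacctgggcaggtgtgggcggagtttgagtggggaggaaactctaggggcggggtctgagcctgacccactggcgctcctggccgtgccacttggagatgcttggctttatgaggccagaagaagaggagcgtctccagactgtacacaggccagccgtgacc
Umod, chr7:119479213-119479512, minus strand: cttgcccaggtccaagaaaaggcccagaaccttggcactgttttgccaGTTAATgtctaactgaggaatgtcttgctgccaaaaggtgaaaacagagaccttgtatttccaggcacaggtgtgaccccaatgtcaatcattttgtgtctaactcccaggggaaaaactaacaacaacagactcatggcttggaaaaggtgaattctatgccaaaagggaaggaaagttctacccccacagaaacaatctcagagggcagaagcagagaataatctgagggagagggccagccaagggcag
Kcnj1, chr9:32393735-32394034, plus strand: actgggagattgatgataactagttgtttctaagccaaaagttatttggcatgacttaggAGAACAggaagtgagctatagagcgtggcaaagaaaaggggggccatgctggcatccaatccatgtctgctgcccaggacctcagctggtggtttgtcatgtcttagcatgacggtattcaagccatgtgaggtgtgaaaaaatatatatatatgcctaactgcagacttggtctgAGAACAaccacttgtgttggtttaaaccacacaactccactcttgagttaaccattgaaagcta
The Umod window held 1 GTTAAT, 202 bases before the start, a motif found in 7.1% of 32851 RefSeq promoters of the same length. The Kcnj1 window held 2 copies of AGAACA, found in 19% of those promoters. This window, at 32393735 to 32394034, surrounds a RefSeq start inside the GENCODE gene span of 32372493 to 32399197. Its 2 copies therefore do not lie upstream of the whole gene. The windows of Scnn1b, Scnn1g, Slc12a1, Slc12a3, Wnk1 and Wnk4 held neither run of letters. G and C made up 61.7% of the Scnn1b window and 64.7% of the Scnn1g window, against 47.3% for Umod and 43.7% for Kcnj1.

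The 25 kidney samples, 5 per arm, held 1241590 (control cells 5) to 16912788 (PNx 2) counts, with a median of 9834586, and 16599 to 23266 genes were detected. Some libraries stood apart. An RNA length index, the mean log2 level of the shortest 25% of the genes tested minus that of the longest 25%, lay between −1.11 and −0.92 in Sham. PNx 3, 4 and 5 had an index of 0.16, 0 and 0.17, and control cells 4 and 5 had one of 0.25 and 0.26, whereas PNx 1 and 2 had −0.99 and −1.08. In the remaining samples it ran from −1.21 to −0.17. PNx 3 also held 2819.8 CPM (counts scaled to the total of the library) over 6 neutrophil markers, against at most 95 CPM in any other kidney sample, and 7147 CPM over 10 proximal tubule markers, against 16426 to 18302 CPM in Sham. Several results are given with and without them.

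**Figure D1:**
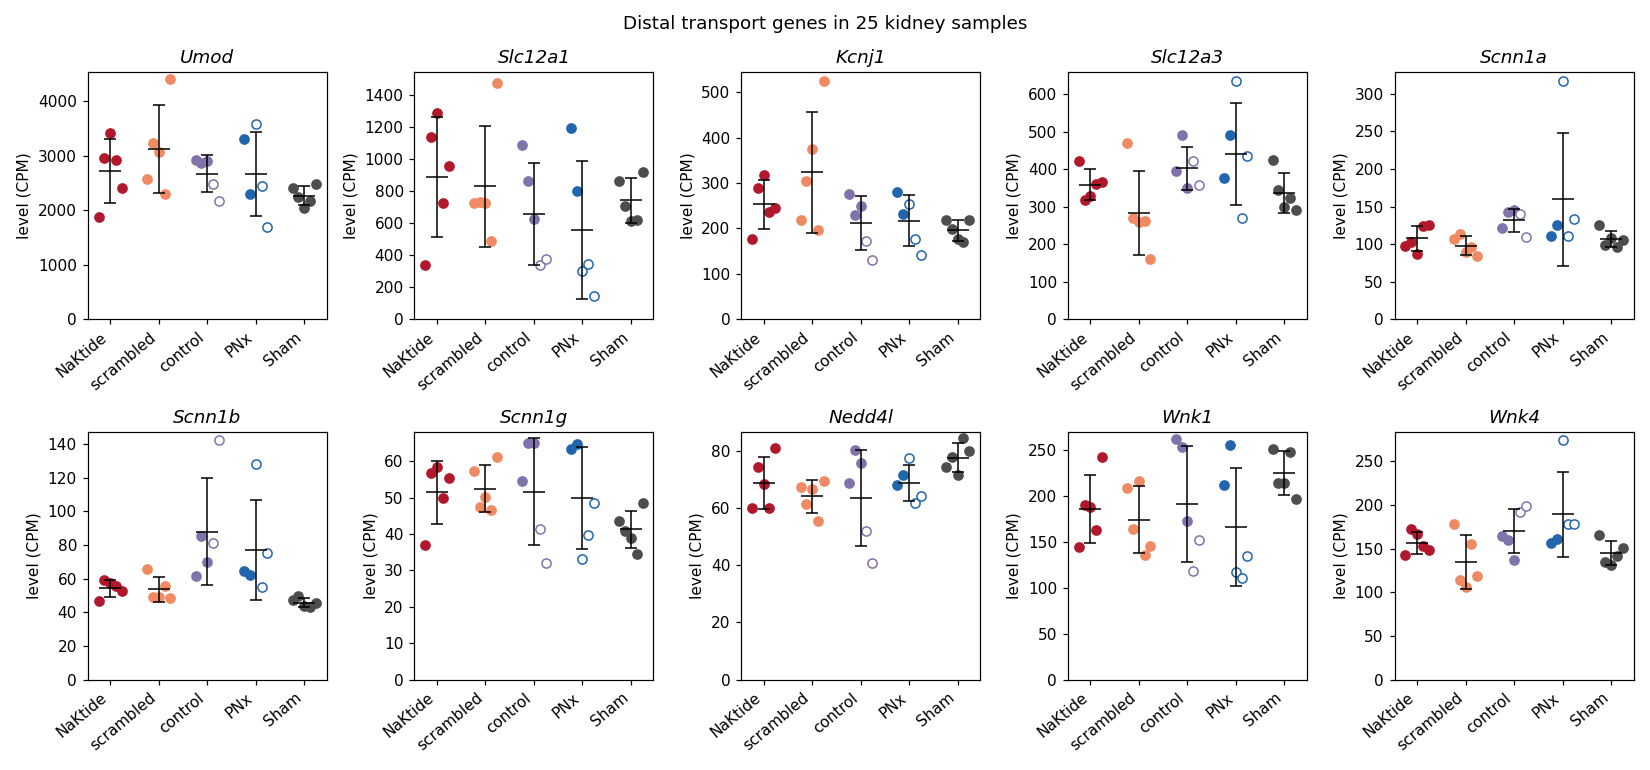
Level of each of the 10 genes (y axes, CPM, starting at 0) in each kidney sample, with the 5 arms along the x axis from NaKtide cells to Sham. Points are samples, open where the length index is 0 or above, and black marks are the arm mean ± SD. PNx 3 is the highest point for Scnn1a (317 CPM), Slc12a3 (636 CPM) and Wnk4 (275 CPM), and scrambled cells 5 is the highest for Slc12a1 (1478 CPM), Kcnj1 (525 CPM) and Umod (4401 CPM).

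Per length of transcript, Umod stood far above the other members, and the kinase Wnk1 and the ligase Nedd4l stood lowest. On the authors' FPKM scale the Sham means were 795 ± 60.3 for Umod, 125 ± 23.5 for Slc12a1, 57 ± 6.64 for Kcnj1, 33.8 ± 3.19 for Wnk4 and 29.4 ± 4.62 for Slc12a3 (SD, n = 5). The 3 ENaC subunits followed in the order Scnn1a (25.1 ± 2.6 FPKM), Scnn1b (16.9 ± 0.997 FPKM) and Scnn1g (13.3 ± 1.69 FPKM), and Wnk1 (9.56 ± 0.994 FPKM) and Nedd4l (5.24 ± 0.329 FPKM) came last. In Sham, Wnk4 overlapped with Slc12a3 and Slc12a3 with Scnn1a, while no other neighbours in this order overlapped. Wnk1 and Nedd4l have union exon lengths of 22825 and 17659 bases, against 2633 to 11119 bases for the other members. A kidney cell does not use all of those exons, so the FPKM of Wnk1 and Nedd4l is a low estimate. The 11119 bases are of Slc12a3, so its FPKM and its place below Wnk4 may be too low as well. By CPM, which takes no account of length, Slc12a3 averaged 337 CPM in Sham and Wnk4 averaged 145 CPM. Every member had at least 26 counts in every kidney sample.

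Umod, the marker of the thick ascending limb, was high in every kidney. It measured 1875 to 3417 CPM in NaKtide cells, 2299 to 4401 CPM in scrambled cells, 2169 to 2921 CPM in control cells, 1697 to 3578 CPM in PNx and 2038 to 2472 CPM in Sham. The 5 arms overlapped, and the Sham samples were the least spread. Slc12a1, the NKCC2 gene of the same cells, was the most variable member, with a 10-fold range over the 25 samples. It measured 338, 1140.1, 1291, 724 and 958 CPM in NaKtide cells 1 to 5, and 729, 730.3, 724, 492 and 1478 CPM in scrambled cells 1 to 5. In control cells 1 to 5 it measured 1088, 865, 628, 337 and 374 CPM, in PNx 1 to 5 it measured 1196, 800, 299, 346 and 147 CPM, and in Sham 1 to 5 it measured 862, 710.3, 613, 618 and 921 CPM. The 7 samples with the lowest Slc12a1 level were the 7 with a length index of −0.17 or above, in 4 arms. They were PNx 3, 4 and 5, control cells 4 and 5, NaKtide cells 1 and scrambled cells 4.

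Kcnj1, the ROMK gene, was highest in kidneys given scrambled cells. It measured 219, 305, 374, 196 and 525 CPM in scrambled cells 1 to 5 and 218, 198, 176, 169.7 and 218 CPM in Sham 1 to 5. Of the 5 scrambled cell samples, 4 lay above every Sham sample, and scrambled cells 4 lay inside the Sham range. It measured 176 to 317 CPM in NaKtide cells, 129.6 to 276 CPM in control cells and 142 to 281 CPM in PNx.

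Slc12a3, the NCC gene of the distal convoluted tubule, had its lowest level, 160.4 CPM, in scrambled cells 5 and its highest, 636 CPM, in PNx 3. It averaged 359 ± 40.8 CPM in NaKtide cells, 284 ± 113 CPM in scrambled cells, 403 ± 57.2 CPM in control cells, 442 ± 136 CPM in PNx and 337 ± 53.2 CPM in Sham (SD, n = 5 each). The FPKM ratio of Slc12a1 to Slc12a3, loop over distal tubule, ran from 0.653 (PNx 5) to 17.8 (scrambled cells 5) and lay between 3.68 and 6.07 in Sham. Its size rests on the exon lengths behind FPKM, so it is read between samples only. The lowest and the highest ratio were both in operated mice. In scrambled cells 5 the 6 thick limb markers, Slc12a1 and Umod among them, summed to 7614 CPM, the highest of the 25 samples, and the 5 distal convoluted tubule markers, Slc12a3 among them, summed to 399 CPM, the lowest. Their part in the ratio was not tested, and in whole tissue fewer cells of a type and less RNA per cell cannot be told apart.

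The WNK kinases differed in opposite directions in PNx without cells, within the spread. Wnk4 averaged 157 ± 12.8 CPM in NaKtide cells, 134 ± 30.7 CPM in scrambled cells, 170.2 ± 25.1 CPM in control cells, 189.6 ± 48.5 CPM in PNx and 145 ± 13.8 CPM in Sham. Wnk1 averaged 186 ± 37.2 CPM in NaKtide cells, 174 ± 36.8 CPM in scrambled cells, 192 ± 63.5 CPM in control cells, 166 ± 64.7 CPM in PNx and 225 ± 23.6 CPM in Sham (SD, n = 5 each). The Wnk1 count joins full-length WNK1 and the kidney-specific form, which lacks most of the kinase domain and starts inside the gene. Wnk1 also overlaps the pseudogene Gm16199 on the other strand, which had 890 counts over all kidney samples.

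Among the ENaC subunits, Scnn1b was higher in every PNx sample and every control cell sample than in any Sham sample. It measured 46.5, 59, 57.6, 55.8 and 52.5 CPM in NaKtide cells 1 to 5 and 65.5, 49, 49.3, 55.7 and 48.3 CPM in scrambled cells 1 to 5. It measured 61.3, 85.3, 70, 81 and 142 CPM in control cells 1 to 5, 64.4, 62.3, 128, 54.9 and 75.3 CPM in PNx 1 to 5, and 47.1, 49.5, 43.7, 42.9 and 45.5 CPM in Sham 1 to 5. The 2 highest samples, control cells 5 and PNx 3, are 2 of those that stood apart, and the value in control cells 5 rests on 115 counts. Over all genes, 5.23% had every PNx sample above every Sham sample, and 2.84% had every control cell sample above. No member lay wholly above Sham in NaKtide cells or in scrambled cells, where 1.51% and 8.52% of all genes did.

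Scnn1g, the neighbouring subunit gene, had another pattern across samples. It measured 37.1, 56.7, 58.4, 49.9 and 55.5 CPM in NaKtide cells 1 to 5 and 57.3, 47.3, 50.1, 46.5 and 61.1 CPM in scrambled cells 1 to 5. It measured 54.7, 65.1, 65, 41.4 and 32.1 CPM in control cells 1 to 5, 63.3, 64.7, 33, 39.7 and 48.5 CPM in PNx 1 to 5, and 43.6, 40.8, 38.9, 34.5 and 48.4 CPM in Sham 1 to 5. In PNx and in control cells its highest samples were those where the length index was low, and the lowest of all 25 was control cells 5, with 26 counts. Scnn1a, which encodes the pore subunit that the channel cannot do without, measured 111, 126, 317, 111 and 133 CPM in PNx 1 to 5 and 125, 98.8, 108, 96.7 and 106 CPM in Sham 1 to 5. Apart from PNx 3 the 2 groups overlapped. Scnn1a ran from 86.8 to 126 CPM in NaKtide cells, 83.8 to 114 CPM in scrambled cells and 109.9 to 145 CPM in control cells.

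Nedd4l, the ligase that acts on ENaC, averaged 68.9 ± 9.14 CPM in NaKtide cells, 64.2 ± 5.68 CPM in scrambled cells, 63.6 ± 16.8 CPM in control cells, 68.8 ± 6.25 CPM in PNx and 77.7 ± 5.03 CPM in Sham (SD, n = 5 each). Every scrambled cell sample (55.5 to 69.6 CPM) lay below every Sham sample (71.6 to 84.5 CPM), as was the case for 10.2% of all genes.

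**Figure D2:**
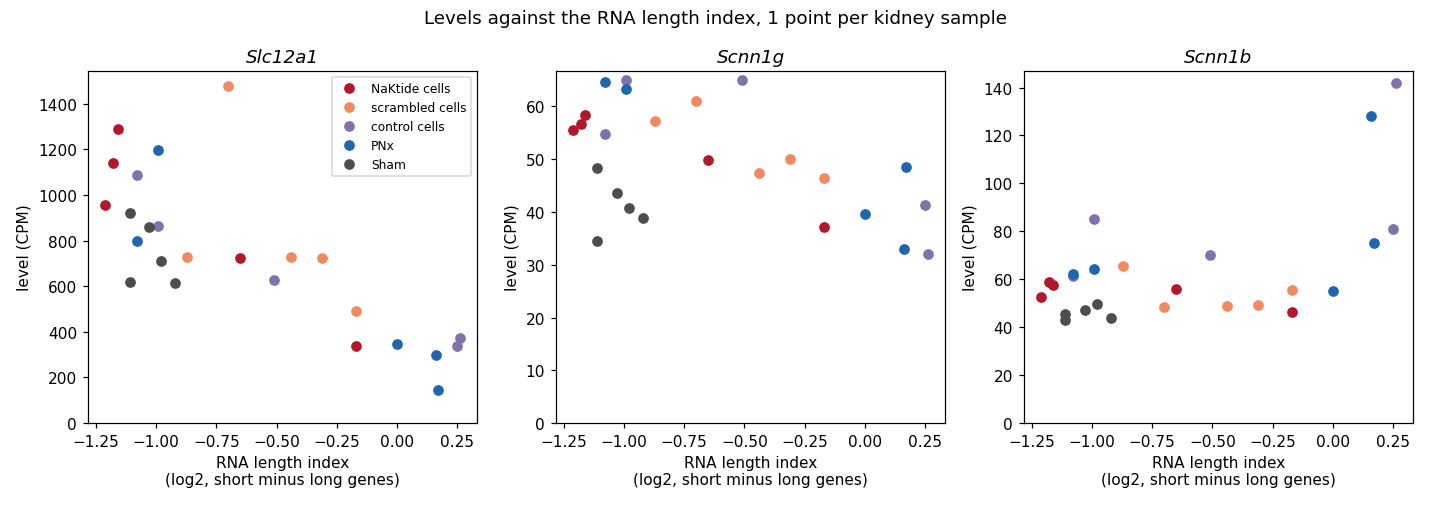
Levels of Slc12a1, Scnn1g and Scnn1b (y axes, CPM) against the RNA length index (x axes, log2, short minus long genes), 1 point per kidney sample, coloured by arm. Slc12a1 is lowest where the index is −0.17 or above, Scnn1g reaches 65.1 CPM at low index and 32.1 CPM at the highest, and Scnn1b has its highest points, 142 and 128 CPM, at high index.

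The first comparison asked what partial nephrectomy did to these genes without any cells. Of the 10 members, 1 passed the test: Scnn1b, the β subunit of ENaC, rose to 76.9 ± 29.4 CPM in PNx, against 45.7 ± 2.66 CPM in Sham (SD, n = 5 each). It was 1.68-fold higher, a log2 difference of 0.75 with a 95% interval of 0.35 to 1.15 (SE 0.203, edgeR adjusted p = 0.0259). Over all 16307 genes tested, 16.8% were called, 1509 higher and 1233 lower, so a count of 1 in 10 members does not exceed the background. The members' median log2 fold change was 0.25, against 0.05 for all genes. Scnn1b lies over Cog7, a Golgi gene on the other strand, and the counting strand is not given in the sources used here. Mean Cog7 was 64.3 CPM in PNx kidneys, against 65.9 CPM in Sham kidneys, and its log2 difference was −0.03 (edgeR adjusted p = 0.892).

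The Scnn1b call depended on a few samples. Without PNx 3 the log2 fold change was 0.47 (edgeR adjusted p = 0.122), and without all 5 libraries of high length index it was 0.46 (adjusted p = 0.248); 1.86% and 0.572% of all genes were called in those fits. Leaving out Sham 1, 3 or 4 gave 0.76, 0.73 and 0.73 (edgeR adjusted p = 0.0516, 0.0559 and 0.0644). Over 20 other settings the value stayed between 0.46 and 0.85, with edgeR, DESeq2 or limma adjusted p from 0.00773 to 0.248, and passed in 13.

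The other 9 members did not pass in PNx. For Scnn1a the mean was 159.7 ± 88.5 CPM in PNx kidneys, against 107 ± 11.2 CPM in Sham kidneys, and the log2 difference was 0.58 (SE 0.217, edgeR adjusted p = 0.0599). Without PNx 3 that difference was 0.15 (edgeR adjusted p = 0.442), while leaving out PNx 1 or PNx 2 gave 0.65 in both cases (adjusted p = 0.0292 and 0.0304). Wnk4 differed by 0.39 (SE 0.162, edgeR adjusted p = 0.0787), and by 0.20 without PNx 3. Leaving out PNx 2 alone brought Wnk4 to 0.44 (edgeR adjusted p = 0.045) and Wnk1 to −0.65 (adjusted p = 0.0321). In both kinases the call turned on which PNx samples were counted. Slc12a3 (0.39), Scnn1g (0.28), Umod (0.23) and Kcnj1 (0.15) had positive log2 fold changes, and Slc12a1 (−0.42), Wnk1 (−0.44) and Nedd4l (−0.18) had negative ones, with edgeR adjusted p from 0.154 to 0.662. The intervals of the larger ones were wide, −1.28 to 0.45 for Slc12a1 and −0.90 to 0.02 for Wnk1.

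**Figure D3:**
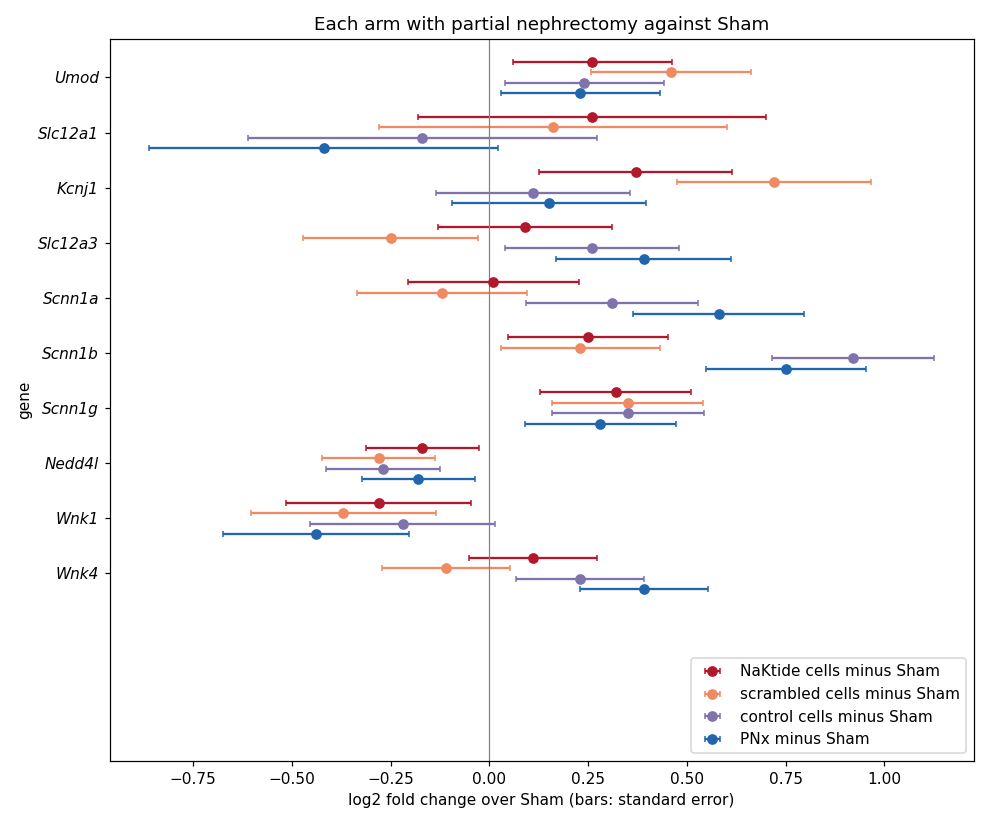
Log2 fold change of each of the 10 genes (y axis) in NaKtide cells, scrambled cells, control cells and PNx, each minus Sham (x axis), with standard errors as bars. Scnn1b in control cells (0.92) and PNx (0.75) and Kcnj1 in scrambled cells (0.72) lie furthest to the right, and Nedd4l and Wnk1 lie left of 0 in all 4 arms.

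The PNx samples fell into sets by the length index, and several members differed between them. These sets come from the index and are not groups of the study, so the values are a description. Slc12a1 averaged 264 CPM over PNx 3, 4 and 5 and 998 CPM over PNx 1 and 2, a ratio of 0.265. The ratio was 0.516 for Wnk1, 0.631 for Scnn1g and 0.745 for Kcnj1, and it was 1.58 for Scnn1a, 1.36 for Scnn1b and 1.32 for Wnk4. Umod (0.919), Nedd4l (0.97) and Slc12a3 (1.03) were close to 1. With the index as a covariate in the fit, Slc12a1 changed sign, to 0.28 (edgeR adjusted p = 0.546), whereas without PNx 1 it was −0.92 (adjusted p = 0.099) and by limma voom −0.98 (adjusted p = 0.0245). In the covariate fit Wnk1 came to −0.04 (adjusted p = 0.928) and Scnn1b to 0.55 (adjusted p = 0.124). Scnn1g, which like Scnn1a did not pass in the fit without the covariate, was then 0.61 higher in PNx than in Sham (SE 0.124, edgeR adjusted p = 0.00702). Without the 5 libraries of high index Scnn1g measured 0.63 (edgeR adjusted p = 0.102), with 2 PNx samples left. Its adjusted p ran from 0.00702 to 0.573 over 20 other settings. What the index stands for was not tested.

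**Figure D4:**
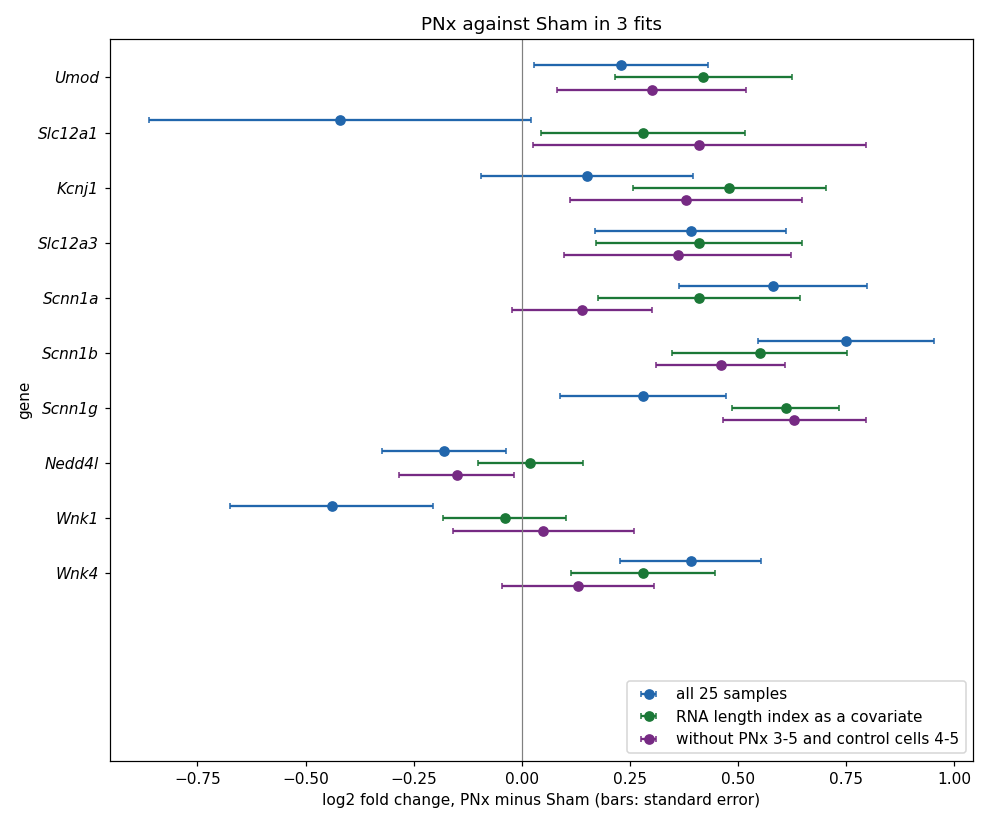
Log2 fold change of the 10 genes (y axis) in PNx minus Sham (x axis; bars are standard errors) in 3 fits: all 25 samples, all samples with the length index as covariate, and without PNx 3 to 5 and control cells 4 and 5. Scnn1g moves from 0.28 to 0.61 and 0.63, Slc12a1 moves from −0.42 to 0.28 and 0.41, and Scnn1b moves from 0.75 to 0.55 and 0.46.

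The next comparisons asked whether kidneys given cells after PNx differed from Sham. No member passed in any of the 3 cell arms, and across the 5 arms together 1 did, Scnn1b (edgeR F test, adjusted p = 0.0389), where 1.83% of all genes were called. That call was lost when any of 15 samples was left out in turn, and the adjusted p of the other 9 members was 0.142 to 0.675. In control cells Scnn1b averaged 87.9 ± 31.6 CPM, against 45.7 ± 2.66 CPM in Sham. The log2 difference of 0.92 had an interval of 0.51 to 1.32 (SE 0.206, edgeR adjusted p = 0.0655), and the level was higher in 5 of 5 control cell samples. In all, 9 genes (0.0552%) were called in that comparison, and 3524 had an unadjusted p under 0.05. Without control cells 1 or 2 or without PNx 3 the value was 1.02, 0.92 and 0.90 (edgeR adjusted p = 0.0196, 0.0482 and 0.0186), and without control cells 5 it was 0.68 (adjusted p = 0.249). Over 20 settings the adjusted p ran from 0.00085 to 0.249.

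In the other cell arms the ENaC β subunit lay closer to Sham. The log2 fold change of Scnn1b was 0.25 in NaKtide cells (interval −0.15 to 0.64) and 0.23 in scrambled cells (−0.17 to 0.62), with edgeR adjusted p of 0.937 and 0.489. Scnn1g was similar in size in all 4 PNx arms, at 0.32 in NaKtide cells, 0.35 in scrambled cells, 0.35 in control cells and 0.28 in PNx, each against the same Sham samples and with edgeR adjusted p of 0.858, 0.278, 0.284 and 0.266. With the length index as a covariate it was 0.63 in scrambled cells (edgeR adjusted p = 0.00234) and 0.65 in control cells (adjusted p = 0.0247). Without that covariate both passed by limma voom alone, at 0.30 in scrambled cells (adjusted p = 0.0334) and 0.56 in control cells (adjusted p = 0.00866). The covariate fit called 8.28% of all genes in scrambled cells against Sham and 0.227% in control cells against Sham. Voom called 42.3% and 2.27% in the same order. In NaKtide cells Scnn1g passed in 1 of 20 other settings (lowest edgeR, DESeq2 or limma adjusted p = 0.00295). Over those settings 0% to 19.7% of all genes were called in NaKtide cells against Sham.

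In scrambled cells the potassium channel gene Kcnj1 averaged 324 ± 133 CPM, against 196 ± 22.9 CPM in Sham (SD, n = 5 each). Its log2 fold change was 0.72 (SE 0.246, interval 0.24 to 1.21, edgeR adjusted p = 0.0953), and 3.61% of all genes were called. Without scrambled cells 5 it was 0.48 (edgeR adjusted p = 0.267). It passed under 4 of 20 other settings, among them the fit of these 2 arms alone (0.70, edgeR adjusted p = 0.0299) and the fit without the 5 libraries of high index (0.69, adjusted p = 0.0197), where 29.6% and 26.7% of all genes were called, with adjusted p from 0.00128 to 0.267 over all 20. Umod, 0.46 higher (SE 0.202, edgeR adjusted p = 0.185), and Nedd4l, 0.28 lower on that scale (log2 fold change −0.28, SE 0.143, adjusted p = 0.252), were the members next in size of test. Among markers of other cells in the same comparison, 3 of 7 macrophage genes and 2 of 5 fibroblast genes rose, 2 of 10 proximal tubule genes fell, and 2 of 6 thick limb genes rose. The last were Cldn10 (0.77, edgeR adjusted p = 0.00728) and Cldn16 (1.10, adjusted p = 0.0169), claudins of the thick limb's tight junctions, chosen after their values were seen. The part of these markers in the Kcnj1 difference was not tested. The other members in this arm, Scnn1a, Scnn1b, Scnn1g, Slc12a1, Slc12a3, Wnk1 and Wnk4, had log2 fold changes from −0.37 (Wnk1) to 0.35 (Scnn1g).

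In NaKtide cells no member's difference from Sham passed in the edgeR fit of all 25 samples. Like Scnn1g, Scnn1b and Kcnj1 each passed in 1 of 20 other settings (lowest edgeR, DESeq2 or limma adjusted p = 0.0351 and 0.0122). Limma voom called 19.7% of all genes in this comparison, and every other setting called at most 0.358%. The values that follow are of the edgeR fit of all samples. The log2 fold changes ran from −0.28 for Wnk1 (edgeR adjusted p = 0.937) to 0.37 for Kcnj1 (adjusted p = 0.906), with a median of 0.18, against 0.04 for all genes. Scnn1a, Slc12a1, Slc12a3, Nedd4l, Wnk4, Umod and both other ENaC subunits lay inside that range. No gene of the 16307 was called by edgeR (0%), 1015 had an unadjusted p under 0.05, and none of the 10 members was among them. In control cells Nedd4l was at −0.27 (SE 0.144, edgeR adjusted p = 0.276), and the members other than Scnn1b lay between −0.27 and 0.35.

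Against PNx without cells, no member passed in any cell arm. In NaKtide cells Scnn1a averaged 108 ± 17.1 CPM, against 159.7 ± 88.5 CPM in PNx (log2 fold change −0.57, SE 0.217, edgeR adjusted p = 0.258), and Scnn1b was at −0.50 (SE 0.202, adjusted p = 0.258). Without PNx 3 they were −0.14 and −0.22 (edgeR adjusted p = 0.598 and 0.551). Slc12a1 was at 0.67 (SE 0.443, interval −0.19 to 1.54, edgeR adjusted p = 0.324), and ran from −0.19 (without the 5 libraries of high index) to 1.5 (limma voom, adjusted p = 0.00563, where 41.5% of all genes were called). Leaving out 1 sample gave it 0.45 to 1.19. Scnn1g, Slc12a3, Kcnj1, Nedd4l, Wnk1, Wnk4 and Umod lay between −0.30 and 0.22. In scrambled cells Scnn1a (−0.70, SE 0.217), Slc12a3 (−0.64, SE 0.222), Wnk4 (−0.50, SE 0.162), Scnn1b (−0.52, SE 0.202) and Kcnj1 (0.58, SE 0.245) had unadjusted p under 0.05 and edgeR adjusted p from 0.309 to 0.343. Leaving out PNx 3 brought Scnn1a to −0.31, Scnn1b to −0.27, Slc12a3 to −0.48 and Wnk4 to −0.34. Scnn1g, Slc12a1, Nedd4l, Wnk1 and Umod lay between −0.10 and 0.57. Across all genes 0 were called with NaKtide cells and 0 with scrambled cells against PNx by edgeR, while 3116 and 2140 had an unadjusted p under 0.05. With control cells the 10 members ran from −0.27 (Scnn1a) to 0.24 (Slc12a1), with 0 genes called and 1049 under 0.05 unadjusted.

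Between NaKtide cells and scrambled cells, the arms that both received Lenti-adipo cells, no member passed the threshold. Slc12a3 averaged 359 ± 40.8 CPM in NaKtide cells and 284 ± 113 CPM in scrambled cells (log2 fold change 0.34, interval −0.09 to 0.77). Kcnj1 averaged 253 ± 53.9 CPM in NaKtide cells and 324 ± 133 CPM in scrambled cells (−0.36, interval −0.84 to 0.12). The lowest edgeR adjusted p among the members was 0.879, for these and for Wnk4 and Umod. Wnk4 was at 0.22, Scnn1a at 0.13, Slc12a1 and Nedd4l both at 0.10, Wnk1 at 0.09, Scnn1b at 0.02, Scnn1g at −0.03 and Umod at −0.20. For Scnn1b the interval was −0.38 to 0.42 and for Scnn1g −0.40 to 0.35, so differences of that size remain possible. Slc12a1 had the widest interval, −0.76 to 0.96. No gene of the 16307 was called by edgeR, and 819 had an unadjusted p under 0.05.

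Against control cells no member passed in NaKtide cells or in scrambled cells, and Scnn1b differed most in both. Scnn1b was at −0.67 in NaKtide cells against control cells (SE 0.205, edgeR adjusted p = 0.345), with 5 of 5 NaKtide cell samples below every control cell sample, a pattern that 0.276% of all genes had. It was at −0.69 in scrambled cells against control cells (SE 0.205, edgeR adjusted p = 0.248), where Kcnj1 was at 0.61 (adjusted p = 0.39) and 0.0123% of all genes were called. With NaKtide cells 0 genes were called and 2102 had an unadjusted p under 0.05. The 10 members ran from −0.67 to 0.43 with NaKtide cells and from −0.69 to 0.61 with scrambled cells. These comparisons share their samples with those above.

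Genes around the members in the same pathways were read from 5 lists. In PNx against Sham, 8 of their 43 tested genes rose and 4 fell, where 16.8% of all genes were called. Without PNx 3, 11 of these 12 calls were lost, and leaving out Sham 2, Sham 3 or Sham 4 each ended the same 11. Calls over all genes dropped in those fits too, to 1.86%, 3.91%, 4.27% and 2.32%. The log2 fold changes of the 12 genes kept their sign in each of the 25 fits with a sample left out, from 1.2 to 1.69 for S100g and from −1.24 to −0.74 for Atp1b1. Of the WNK and SPAK kinase list, 9 genes were tested, 1 rose and 2 fell, with a median log2 fold change of −0.17. Ppp1r1a, a phosphatase inhibitor, rose to 366 ± 311 CPM in PNx, against 151 ± 17.9 CPM in Sham (1.28, edgeR adjusted p = 0.0258). Cul3, the cullin that degrades WNK kinases with KLHL3, fell to 73.4 ± 32 CPM in PNx, against 137 ± 10.4 CPM in Sham (−0.90, adjusted p = 0.0305), and Cab39, a SPAK cofactor, fell too (−0.40, adjusted p = 0.0479). The genes of the kinases SPAK (Stk39, 0.20, edgeR adjusted p = 0.466) and OSR1 (Oxsr1, −0.17, adjusted p = 0.213), looked up after the values were seen, did not pass.

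Of the aldosterone list, 9 genes were tested, 2 rose and none fell, with a median of −0.34, opposite in sign to its calls. Hsd11b2, the enzyme that keeps glucocorticoids off the mineralocorticoid receptor, rose to 258 ± 54.7 CPM in PNx, against 167 ± 15.1 CPM in Sham (0.63, SE 0.136, edgeR adjusted p = 0.0113). It alone of the 12 list calls remained without PNx 3 (0.48, adjusted p = 0.0416), and it remained with each of the 25 samples left out in turn. With the length index as a covariate it was 0.59 (edgeR adjusted p = 0.0185), and without the 5 libraries of high index it was 0.42 (adjusted p = 0.316), with 2 PNx samples left. Usp2, a deubiquitinase of the list, was at −0.44 in PNx (adjusted p = 0.215), but fell with the covariate (−1.06, adjusted p = 0.0068) and without the 5 libraries (−1.35, adjusted p = 0.0304). St14, a membrane protease, rose by 0.83 (edgeR adjusted p = 0.0365). The receptor gene Nr3c2 (−0.62, adjusted p = 0.145) and the aldosterone-induced kinase gene Sgk1 (−0.42, adjusted p = 0.451), which were picked out after their values were seen, did not pass.

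Of the basolateral exit list, 9 genes were tested, 2 rose and 2 fell, with a median of 0.50. Among them, the pump regulator Fxyd4 rose (1.40, edgeR adjusted p = 0.0382), and the potassium channel gene Kcnj16 (−0.48, adjusted p = 0.0345) and Atp1b1, the Na/K-ATPase β subunit (−0.91, adjusted p = 0.0378), fell. Atp1b1 averaged 854 ± 472 CPM in PNx kidneys, against 1601 ± 103 CPM in Sham kidneys (SD, n = 5 each). Of the other potassium and divalent cation genes, 8 were tested and the calcium-binding protein genes S100g (1.5, edgeR adjusted p = 0.0379) and Calb1 (0.58, adjusted p = 0.0418) rose, with a median of 0.41. These 2 bind calcium and carry no potassium. Of the regulators, 8 were tested and the transcription factor gene Emx1 rose (0.68, edgeR adjusted p = 0.0478), with a median of −0.01. In scrambled cells against Sham 1 list gene was called, Usp2 again, at 99.7 ± 31.8 CPM in scrambled cells against 199 ± 15.6 CPM in Sham (log2 fold change −1, edgeR adjusted p = 0.0417). In NaKtide cells against Sham, control cells against Sham and NaKtide against scrambled cells no list gene was called.

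Markers of the nephron segments and of other cells were also counted in PNx against Sham, where 16.8% of all genes were called. A list's count near that share says nothing about the list. Of the markers, 2 of 6 thick limb genes (Cldn10 and Cldn16), 2 of 5 distal convoluted tubule genes, 4 of 6 connecting tubule and principal cell genes and 2 of 6 intercalated cell genes rose, and 3 of 10 proximal tubule genes fell. The principal cell genes were Scnn1b itself, Hsd11b2, Fxyd4 and Aqp2. The sum over the 7 genes of that list, Scnn1b and Scnn1g included, was 1034 to 2380.1 CPM in PNx and 636 to 1141 CPM in Sham, and it was highest in PNx 3, where Scnn1b and Scnn1a were highest too. No podocyte, fibroblast or adipocyte gene was called, and 1 endothelial gene, Kdr, fell. Of the macrophage genes 5 of 7 rose, with a sum of 1321 CPM in PNx 3, 87.7 to 256 CPM in the other PNx samples and 99.8 to 133 CPM in Sham. Neutrophil markers had 2 tested genes, both higher, and apart from PNx 3 the sum was at most 19.6 CPM in PNx and 1.81 CPM in Sham, where 2 of the 6 genes were at 0. Without PNx 3, 1.86% of all genes were called. None of the thick limb, distal convoluted tubule, intercalated cell, macrophage and neutrophil genes was called then. In that fit 1 principal cell gene and 3 proximal tubule genes were called. The part of these markers in the members' differences was not tested.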

How the data were processed

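RNA-seq of flash-frozen kidney (total RNA, Qiagen RNeasy Plus Universal kit, 2 reads of 50 bases, per the labels' protocols) gave 26 of the 76 libraries of the series; heart and visceral adipose tissue appear only among the closing observations. The authors deposited raw read counts per gene, which all tests used. The authors' second table, of unit signal, holds those counts divided by 1 size factor per library and served as a check only. The authors' last table holds FPKM per gene, used to compare levels between genes. Per the submitters' processing notes, HISAT2 2.1.0, Trimmomatic 0.38 and DESeq2 (1.20.0 and 1.20.1) were used with build GRCm38. The counter, its strand setting and its annotation were not given in the sources used here.

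A second library labelled Sham 3 was summed with the first by its label. The libraries differed (chi-square per degree of freedom 9.098) by more than any pair of differently numbered Sham samples without the second library (3.344 to 6.73), so the counts do not show that they are the same sample. In this way 25 samples, 5 per arm, entered the fit. The FPKM value of Sham 3 is the mean of both libraries. Counts were fitted with edgeR 4.0.16 in R 4.3.3 (TMM, filterByExpr, quasi-likelihood test over all 5 arms, Benjamini-Hochberg over 16307 genes), with calls at an adjusted p under 0.05; CPM are TMM-adjusted, except in marker sums and other tissues, which use plain totals. The fit was tested on counts simulated with the same spread for every gene and no length shift or outlying sample. That test does not cover such features of the real samples. Intervals are approximate 95% intervals from the SE of the fit and cover the spread between samples. They rest on a normal approximation and are somewhat narrower than the F test implies. Median log2 fold changes of all genes under other scalings moved by less than 0.1.

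The 10 members, the pathway and marker lists and the alternatives were chosen with earlier results of these data known. All 10 members are named, and list genes where called in PNx against Sham or NaKtide against scrambled cells, at most 6 per list; a gene counted in these lists is not reported here by name. Alternatives were DESeq2 1.42.0, limma 3.58.1 voom with quality weights, DESeq2 size factors, no expression filter, only the 2 arms compared, a replicate block, 2 treatments of the second Sham 3 library, the RNA length index (union exon lengths of GENCODE M21) as a covariate, leaving out the 5 libraries of high index, and leaving out each of the 25 samples in turn. Promoters come from RefSeq on GRCm38.p6.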

Additional observations from a re-analysis of the deposited data

Results flagged for a closer look

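In 50 groups of 5 samples (10 genes in 5 arms), 4 held a sample whose distance from its nearest neighbour was large for the group's range, and chance alone gives about 1 in 20. PNx 3 was the sample in 3 of them. Scnn1a was 317 CPM there, against 111 to 133 CPM in the other PNx samples, a gap of 0.892 of the range. Wnk4 was 275 CPM there, against 156 to 178 CPM, a gap of 0.811 of the range. Scnn1b was 128 CPM there, against 54.9 to 75.3 CPM, a gap of 0.721 of the range. PNx 3 also held the highest neutrophil sum of the kidney samples, 2819.8 CPM, and the lowest proximal tubule sum, 7147 CPM, and their part in these values was not tested. The other sample was scrambled cells 5, where Slc12a1 was 1478 CPM, against 492 to 730.3 CPM in the other scrambled cell samples, a gap of 0.758 of the range.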

How the results depend on the processing

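The number of members called depended on the test, on PNx 3 and on the length index, and the cause was not tested. Shares in brackets are of all genes called in the same fit, and a member count near its share says nothing about the members. In PNx against Sham, 1 member was called (16.8%); limma voom called 3 (44.3%), the fit of the 2 arms alone 0 (0.979%), Sham 3 kept as separate libraries 2 (26.5%), and the fit without the 5 libraries of high length index 0 (0.572%). Leaving out 1 sample gave 0 (PNx 3, 1.86%; Sham 1, 3 or 4, 2.32% to 4.27%) to 4 (PNx 2, 39.6%) calls. With the length index as a covariate the count was again 1 (3.5%), but the gene was Scnn1g (0.61) and not Scnn1b (0.55). In scrambled cells against Sham, 0 were called; voom called 6 (42.3%), the 2 arms alone 3 (29.6%), the length index 3 (8.28%) and the fit without the 5 libraries 2 (26.7%). In control cells against Sham, 0 were called; DESeq2 (6.82%), Sham 3 kept separate (0.494%) and the length index (0.227%) called 1 each, voom 2 (2.27%), and leaving out 1 sample 0 to 1. In comparisons with 0 calls voom called 4 (19.7%) in NaKtide cells against Sham, 2 (41.5%) in NaKtide cells, 1 (5.61%) in scrambled cells and 1 (12.8%) in control cells against PNx, 1 (27%) in NaKtide against scrambled cells (Wnk4, 0.40), 1 (2.4%) in NaKtide against control cells and 3 (9.13%) in scrambled against control cells. Over the 5 arms 1 was called; voom called 10 (73.9%), the length index 2 (4.04%), no expression filter 0 (1%), and leaving out 1 sample 0 to 1.

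Signs were followed for 43 results. These were all 10 members in PNx against Sham and in NaKtide against scrambled cells, and selected members in other comparisons. Control cells against PNx was not among them. Within these results signs turned as follows. In PNx against Sham the length index as a covariate gave 0.28 for Slc12a1 and 0.02 for Nedd4l. The fit without the 5 libraries gave 0.41 for Slc12a1 and 0.05 for Wnk1, and voom gave −0.03 for Kcnj1. In NaKtide cells against PNx, Slc12a1 came to −0.19 without the 5 libraries. In NaKtide against scrambled cells, values near 0 turned: voom gave 0.15 for Scnn1g, and the length index gave −0.53 for Slc12a1, −0.01 for Nedd4l and −0.18 for Wnk1. Leaving out 1 sample there gave −0.01 to 0.10 for Scnn1b, −0.07 to 0.07 for Scnn1g, −0.07 to 0.41 for Slc12a1 and −0.02 to 0.18 for Wnk1. Of the alternative values of these 43 results, 798 kept their sign and their side of the threshold. Another 33 passed it where the reported value did not, 7 no longer passed and 22 changed sign.

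Same-numbered samples deviated together in no pair of arms at all 5 numbers, with correlations of their deviations from −0.624 to 0.722. In control cells and PNx 4 of the 5 numbers did (0.722, 0.717, 0.445 and 0.313, against −0.483 for number 3). The length index was −1.08, −0.99, −0.51, 0.25 and 0.26 in control cells 1 to 5. It was −0.99, −1.08, 0.16, 0 and 0.17 in PNx 1 to 5, and its part in these correlations was not tested. These correlations do not settle whether the numbers pair samples. The labels do not say that they do, so no pairing was used. With the replicate block, PNx against Sham still had 1 call (Scnn1b, 0.72, edgeR adjusted p = 0.0326), and the 5 arms together had 0.

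Depth limits the control cell samples most: control cells 5, with 1241590 counts, had 26 counts of Scnn1g and 115 of Scnn1b.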

Other observations

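In the heart and visceral adipose libraries of the series Umod, Slc12a1, Slc12a3 and Kcnj1 were near 0 in most libraries. Umod had a median of 1.64 CPM over 25 heart libraries, while Heart Sham 3 held 245 CPM and Heart Sham 2 held 64.1 CPM. Slc12a1 stood at 66.7 and 16.8 CPM in the same 2 libraries, against a heart median of 0.327 CPM, and Slc12a3 at 30.7 CPM and Kcnj1 at 16 CPM in Heart Sham 3, against medians of 0.264 and 0.119 CPM. The cause was not tested. Scnn1a had a median of 5.02 CPM in visceral adipose tissue, where NaKtide cells 2, NaKtide cells 3 and Sham 4 held 108, 106 and 102 CPM. The regulators were broader: Wnk1 had medians of 208 CPM in kidney, 316 CPM in heart and 144 CPM in visceral adipose tissue, and Nedd4l of 74.2, 19.6 and 36 CPM in the same order. Wnk4 was mostly renal, with medians of 157, 16.5 and 2.81 CPM.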
